A study of Caenorhabditis elegans with 10 samples.

Results

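HPL-2 is a C. elegans protein of the heterochromatin protein 1 family, and 1572 regions were called where its fusion to Dam in the hypodermis methylated DNA more than GFP-Dam in the same tissue. They are all intervals of the deposited HPL-2-Dam hypodermis peak list, out of 4583 intervals in the 3 lists of the series. The HPL-2-Dam hypodermis group (strain MRS578, HPL-2::Dam) had 2 libraries and its control, the GFP-Dam hypodermis group (strain BN561, GFP::Dam), had 2. All 4 were L4 larvae grown for 48 h at 20 °C, and genomic DNA was taken from whole larvae, so the tissue of the profile is set by where the fusion was expressed. The sources used here give neither the promoter that drives each fusion nor whether the replicates came from separate cultures.

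Heterochromatin protein 1 proteins bind histone H3 methylated at lysine 9 through a chromodomain and are found on repeats and silent genes, which in C. elegans lie mainly on the distal arms of the chromosomes. In DamID, the bacterial methyltransferase Dam is fused to a protein of interest and marks the adenine of nearby GATC sites, and the methylated fragments are amplified and sequenced. Dam fused to GFP marks chromatin that is merely accessible. The hypodermis is the epidermis that secretes the collagen cuticle. Peaks were called by the authors on an average profile, so there is 1 value per peak, no value per library and no error between replicates. The depth of each library is unknown. No test between conditions was possible, and the intervals below cover counting error only.

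The peaks covered 1744 kb, 1.74% of the genome. Their widths ran from 35 to 8052 bp, with a median of 948 bp and a middle range of 616 to 1411 bp. Their scores, the authors' own on a scale the file does not state, ran from 0.45 to 4.17 with a median of 1.65. Peaks of 2 kb or wider were 157 of 1572 and made up 24.1% of the covered sequence, and 55 peaks were narrower than 300 bp. Intestine peaks were narrower, with medians of 678 bp for HPL-2-Dam and 616 bp for HPL-1-Dam, and 69 and 24 of them were 2 kb or wider.

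The highest scoring regions lay over genes of very different kinds. The highest lay within W04A8.3 (chromosome I, 13844813 to 13846944, WBcel235) with a score of 4.17. The next lay within col-87, a cuticle collagen gene (II, 14090129 to 14091197), and scored 4.11. The one after it, within the junctophilin gene jph-1 (I, 7947961 to 7948690), scored 3.55. The peak over ttc-5, which encodes a tetratricopeptide repeat protein, scored 3.43 in only 318 bp (I, 2061862 to 2062179). Scores of 3.34, 3.27, 3.19 and 3.11 belonged to peaks over F16H6.9, F35F11.2, pudl-2 and txt-4. The CREB transcription factor gene crh-1 lay under a peak of 1406 bp that also scored 3.11 (III, 11659617 to 11661022). Of the 10 highest scoring peaks, 8 lay in outer parts (those at either end when a chromosome is divided into 3 equal lengths), 7 overlapped an HPL-2-Dam intestine peak and 4 an HPL-1-Dam intestine peak.

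Of the 10 widest regions 8 reached 2 or 3 protein-coding genes, while each of the 10 highest scoring touched at most 1. The widest, 8052 bp (I, 639009 to 647060, score 2.29), lay inside Y65B4A.2 and reached Y65B4A.7. The next, 6637 bp (III, 1208485 to 1215121, score 1.91), covered 93.6% of the body of orc-3, which encodes a subunit of the origin recognition complex. A peak of 4727 bp (II, 3051392 to 3056118, score 2.8) covered part of the chemoreceptor gene sri-31 and the whole of lido-13, and had the lowest FDR of the list, 1.09e-38. A peak of 4423 bp (I, 1048940 to 1053362) held the whole glutaredoxin gene glrx-10 and 85.4% of Y34D9A.8, and reached 661 bp into Y34D9A.7. The peak of 3847 bp within frm-1 (I, 14891178 to 14895024, score 2.76), which encodes a FERM domain protein, was the widest over a single named gene that it did not leave. All 10 of the widest peaks lay in outer parts, and 7 of them overlapped an HPL-2-Dam intestine peak.

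Wider peaks tended to score higher and to carry a lower FDR. Spearman's correlation of width with score was 0.284 and of width with FDR -0.465 over 1572 peaks, which share the same libraries and the same GATC sites. Among the 935 peaks at an FDR of 0.01 or below, the correlation of width with score was 0.145. In the lowest quartile of scores (0.45 to 1.43) the median width was 792 bp, and in the highest (1.96 to 4.17) it was 1198 bp. The FDR was 0.01 or below for 143 of 157 peaks of 2 kb or wider and for 16 of 55 peaks under 300 bp. Overlap with intestine also went with score. Of the highest quartile 204 of 393 peaks (51.9%) overlapped an HPL-2-Dam intestine peak, and of the lowest quartile 75 of 397 (18.9%). For HPL-1-Dam intestine these shares were 33.3% and 17.9%.

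**Figure D1:**
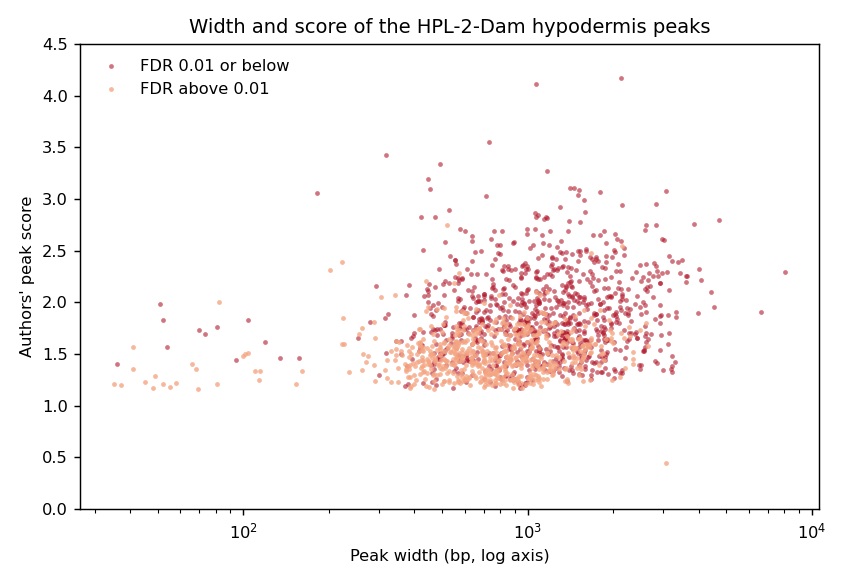
Width in bp (log axis) and authors' score of each of the 1572 HPL-2-Dam hypodermis peaks, in dark red where the FDR was 0.01 or below and in orange where it was above. The FDR was 0.01 or below for 29.1% of peaks under 300 bp and for 91.1% of peaks of 2 kb or wider, and a single peak lies at 0.45, apart from the others.

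Protein-coding gene bodies were overlapped by at least 1 bp in 1182 of 19971 cases, 5.92% of all protein-coding genes, and this share is the background for every gene list below. Such a gene is called bound here. At an FDR of 0.01 or below 756 genes (3.79%) were bound, with 1 kb added to both sides of each gene 1618 (8.1%), and with the midpoint of a peak required inside the body 935 (4.68%). Genes under peaks were longer, with a median of 3164 bp against 1964 bp for the others. The share under a peak was 3.31% of genes shorter than 1 kb, 5.54% of genes of 2 to 5 kb and 34.2% of genes of 20 kb or longer. The share of body sequence covered varied less, from 1.64% to 2.62% over 6 length classes. Most bound genes (1032) had 1 peak, 113 had 2, and 37 had 3 or more. In the median bound gene 23.8% of the body was covered. The whole body was covered in 49 genes, the longest named ones being lido-13 (1695 bp) and glrx-10 (1132 bp).

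Relative to gene ends, 764 peaks (48.6%, 95% exact interval 46.1% to 51.1%) lay wholly inside a gene body. Another 401 (25.5%) crossed an end of a gene, 45 (2.86%) held a whole gene and 362 (23.03%) touched no protein-coding gene body. Peaks inside bodies had a median width of 826.5 bp, those crossing an end 1147 bp and those holding a gene 1862 bp. In the intestine the shares wholly inside a body were 63.96% for HPL-2-Dam and 54.5% for HPL-1-Dam, whose peaks were also narrower. Of the 362 peaks off gene bodies, 51 lay more than 5 kb from any protein-coding gene. A pseudogene, here counting those of transfer RNA genes, lay under 100 of them and no annotated gene of any kind under 206.

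Averaged over all protein-coding genes, cover was lowest outside the gene ends and highest inside the bodies. It was 1.51% in the first 100 bp outside a gene and lowest, 1.43%, between 300 and 500 bp outside. Within the body it was 1.5% in the outermost of 10 segments counted from the nearer end and reached 2.13% in the seventh. Cover in the central 2 segments was 1.33 times that of the first 100 bp outside. The gene table gives no strand, so gene starts and gene ends cannot be told apart. HPL-2-Dam intestine covered 1.82% of the innermost segment and 0.925% of the first 100 bp outside, against a genome share of 1.35%.

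**Figure D2:**
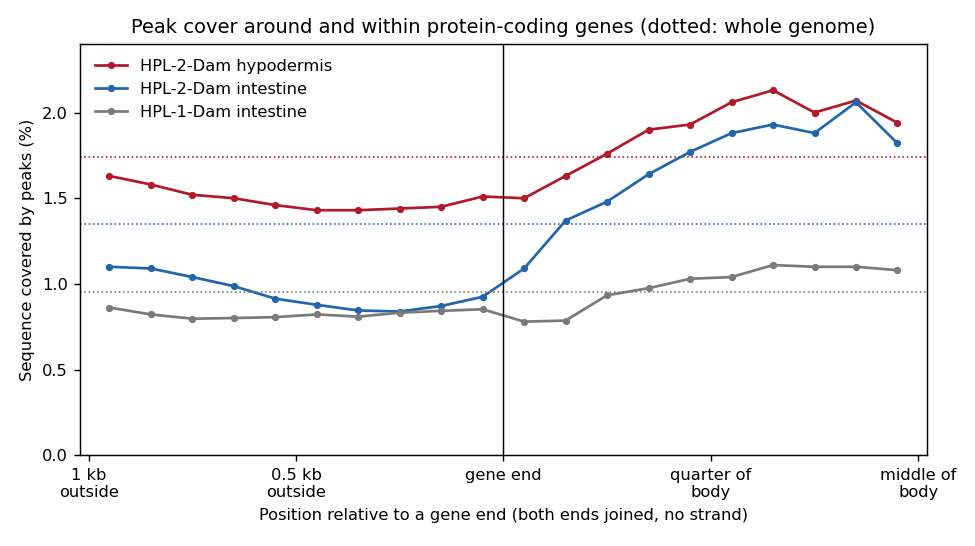
Share of sequence covered by peaks, in percent, from 1 kb outside to the middle of protein-coding genes with both ends joined, for HPL-2-Dam hypodermis (red), HPL-2-Dam intestine (blue) and HPL-1-Dam intestine (grey). Dotted lines give each list's share of the genome. The hypodermis line lies below its genome share of 1.74% outside genes and reaches 2.13% inside them.

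Along the chromosomes the peaks lay mostly on the arms. With each chromosome divided into 3 equal parts, 1389 peaks (88.4%, 95% exact interval 86.7% to 89.9%) had their midpoint in an outer part, and 183 lay in a centre. Gene by gene, 1039 of 12427 protein-coding genes of the outer parts (8.36%) were under a peak, and 143 of 7544 genes of the centres (1.9%). Outer peaks had a median width of 964 bp and a median score of 1.66, and centre peaks 814 bp and 1.56. Peaks were not packed against the chromosome ends. The outermost 0.5 Mb at both ends of the chromosomes, 5.98% of the genome, held 7.7% of the peaks, while the outermost 4 Mb, 47.9% of the genome, held 76.8%.

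The arms differed from one another. With each chromosome cut into 10 equal segments, the highest shares of genes under a peak were 27.5% in segment 1 of chromosome I (52 of 189 genes), 23.4% in segment 9 of V (103 of 440) and 20% in segment 2 of I. The lowest were 0.597% in segment 7 of I, 0.725% in segment 5 of IV and 0.727% in segment 4 of V. On II, III and IV segment 2 exceeded segment 1, with 17.8%, 15.7% and 16.2% against 8.04%, 8.91% and 9.34%. Chromosome V was lopsided, with 247 peaks in its right part and 142 in its left, whereas II had 84 in its right part and 154 in its left, and IV had 56 of its 193 peaks in its right part. Chromosome X had 7.28 peaks per Mb, the lowest of the 6, against 21.8 on I, the highest. The X contrast between outer parts and centre was small, with 3.14% and 2.25% of genes under a peak, while on I these shares were 12.8% and 1.67%.

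**Figure D3:**
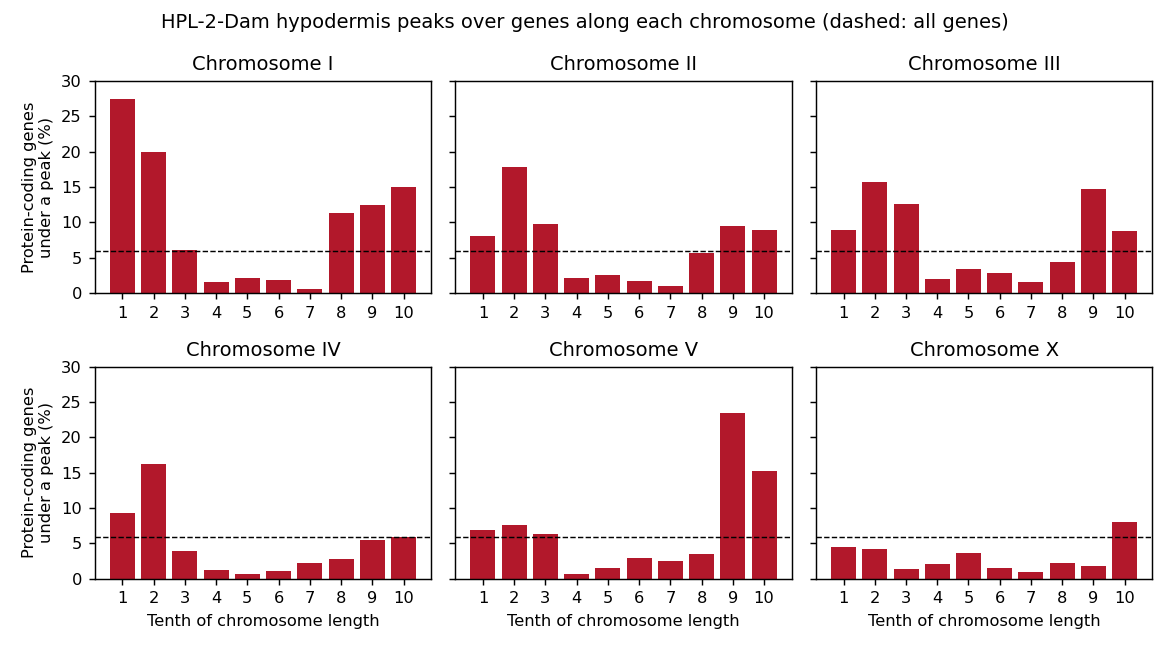
Percent of protein-coding genes under an HPL-2-Dam hypodermis peak in each of 10 equal segments of the 6 chromosomes, with the share over all genes (5.92%) as a dashed line. Autosome centres stay low, segment 1 of I and segment 9 of V stand highest at 27.5% and 23.4%, and X is low throughout except in its last segment, at 8.04%.

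Spacing was uneven. The median distance from 1 peak to the next was 20.7 kb, with a middle range of 3.81 to 68.6 kb, whereas even spacing would give 62.7 kb. Of 1566 distances, 186 (11.9%) were below 1 kb and the shortest was 6 bp. The longest stretch without a peak was 1.65 Mb in the left and central parts of chromosome V (6765047 to 8413032), which holds 459 protein-coding genes. Stretches of 1.21 Mb on IV (4769739 to 5980718) and 1.07 Mb on X (10007389 to 11075671) followed.

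When peaks no more than 10 kb apart were joined, 880 of 1572 (55.98%) fell into 305 runs of at least 2, and 35 runs had 5 or more. Of these 35, 16 lay on chromosome V. The longest run, 12 peaks in 45.4 kb (V, 17118090 to 17163524), touched F40D4.17, F40D4.13, F40D4.12 and the chemoreceptor gene srh-102. A run of 8 peaks in 44.9 kb (V, 16829921 to 16874866) lay over 10 genes, among them the C-type lectin genes clec-25, clec-28, clec-31, clec-32, clec-33 and clec-35 and the troponin I gene tni-3. Other runs of 8 lay over ketn-1 on V and from the cadherin gene cdh-1 to H05C05.1 on III. The densest window of 100 kb held 18 peaks (V, 17051616 to 17151615) over 8 of its 18 protein-coding genes, including sri-66, srh-255 and the nuclear hormone receptor gene nhr-248.

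Body wall muscle genes had the highest share under a peak of the 30 gene lists counted. The lists were chosen with earlier results of these data known, so this rank is a description only. HPL-2 in hypodermis lay over 18 of 35 genes for the contractile apparatus and its attachments (51.4%, 95% exact interval 33.99% to 68.6%), against 5.92% of all protein-coding genes. The share under a peak grew with gene length, as given above, and the median muscle gene was 4800 bp long. Of muscle genes under 5 kb 6 of 18 were bound, against 4.53% of all genes of that length. Of those of 5 to 20 kb 8 of 11 were, against 11.95%. Of those of 20 kb or longer 4 of 6 were, against 34.2%. Peaks covered 10.4% of the summed body length of the list and 1.89% of that of all coding genes. Muscle genes were bound in the outer parts (11 of 22) and in the centres (7 of 13), where 1.9% of all genes were.

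The most peaks per muscle gene were in genes for giant sarcomere proteins. The kettin gene ketn-1 (V, 2781939 to 2807860) had 8 peaks scoring 1.16 to 2.87 over 40.6% of its 25.9 kb. The twitchin gene unc-22 (IV, 11972697 to 12011007), whose product is a titin-like kinase, also had 8, scoring 1.21 to 2.05. Of those 8, 7 were packed between 3.24 and 12.1 kb from the end of unc-22 with the lower coordinate and 1 lay at the opposite end. The obscurin-related gene unc-89 (I, 4035702 to 4090885) had 5 peaks scoring 1.62 to 2.33, of which 4 lay between 28.04 and 35.5 kb. In ttn-1, a titin-like gene of 81.7 kb, a single peak scoring 1.38 covered 1.57%.

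Thick and thin filament genes were bound too. The myosin heavy chain gene unc-54 (I, 14855901 to 14863482) had 3 peaks scoring 2.45, 2.1 and 2.53 over 67.4% of its body. The paramyosin gene unc-15 had 1 peak scoring 2.22 and the tropomyosin gene lev-11 had 3 with a highest score of 2. Troponin T genes tnt-2 and tnt-3 had highest scores of 1.69 and 1.99, and troponin I genes unc-27 and tni-3 of 1.97 and 1.55. The LIM domain attachment protein gene unc-95 had 3 peaks over 54.03% of its 3.38 kb. Contact was slight in some cases, since the peak at unc-96 covered 0.688% of that gene and the peak at the alpha-actinin gene atn-1 3.53%. No peak touched the myosin heavy chain gene myo-3, the perlecan gene unc-52 (37.1 kb), the ryanodine receptor gene unc-68 (27.4 kb) or the actin gene act-4. The intestine lists touched 18 of these 35 genes for HPL-2-Dam, against 6.11% of all genes, and 10 for HPL-1-Dam, against 4.84%. In both tissues HPL-2-Dam lay over 12 of them.

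Among markers of cell types, those of body wall muscle had the highest share under a peak. Of 11 body wall muscle markers 9 were under a peak. They included hlh-1, the MyoD-type transcription factor gene (1.97), and the immunoglobulin-domain gene dim-1 (2.08). All 11 except hlh-1 also belong to the muscle list above, so this count is not separate from that one. HPL-2-Dam intestine lay over 9 of the same 11 markers and HPL-1-Dam intestine over 5. Of 11 hypodermis markers 0 were under a hypodermis peak, and 0 of 11 intestine and 0 of 11 neuron markers. HPL-2-Dam intestine lay over 4 of the 11 hypodermis markers and HPL-1-Dam intestine over 1. Of all protein-coding genes only 5.92% were under a hypodermis peak, so a list of 11 may well hold none. The hypodermis markers lay a median of 98.5 kb from the nearest peak, the closest being the GATA factor gene elt-3 at 5.74 kb and the farthest blmp-1 at 339.5 kb, and 8 of these 11 genes lay in chromosome centres. Among 7 pharyngeal muscle markers the myosin genes myo-1 and myo-2 and the troponin T gene tnt-4 were under peaks, and among 11 germline markers the helicase gene glh-1 and the eggshell gene cbd-1. A peak list does not report expression, so these counts do not check which cells carried the fusion.

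Of 7 lists of hypodermis and cuticle genes, none had an exact interval that excluded the 5.92% of all protein-coding genes. Such intervals treat genes as independent, although neighbours can share a peak, so they are a description and not a test. They are wide for the shorter lists, running from 1.92% to 45.4% for the 13 epidermal regulators. Numbered cuticle collagen genes were bound in 8 of 156 cases (5.13%), near the background of 5.92%, and after col-87 the highest scores were 1.84 for col-65, 1.8 for col-71, 1.7 for col-102 and 1.66 for col-135. Named body-shape collagen genes, such as rol-6 and dpy-7, were bound in 0 of 20 cases (up to 16.8% by the exact interval). HPL-2-Dam intestine lay over 72 of the same 156 and 8 of the same 20. Of 13 epidermal regulators, the Grainyhead gene grh-1 (1.42) and the zinc finger gene lin-29 (1.39), which controls the larva-to-adult switch, were under peaks. Of 20 molting and apical matrix genes the only one was mlt-11 (1.65), and 0 of 17 caenacin and related antimicrobial peptide genes were. Hedgehog-related and patched-related genes were bound in 5 of 86 cases, led by grd-2 (2.09), ptr-12 (2) and ptr-5 (1.93), and astacin protease genes in 3 of 36, led by nas-17 (1.76).

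Large gene families of the arms need a local yardstick, taken here as the mean share of genes under a peak in the chromosome segments where the family members lie. C-type lectin genes, which encode carbohydrate-binding proteins, were under peaks in 35 of 239 cases (14.6%), above the 5.92% of all genes and the 9.46% of their segments. All 35 lay in outer parts, 18 of them on V, and the leading members were clec-115 (2 peaks, up to 2.71, over 58.6% of the gene), clec-101 (2.35), clec-31 (2.3), clec-104 (2.25), clec-21 (2.19) and clec-92 (2.19). Neighbours shared peaks in several cases, such as clec-125 with clec-126 (1.97), clec-240 with clec-241 (1.95) and clec-256 with clec-257 (1.89).

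Genes with MATH and BTB domains, substrate adaptors of cullin ubiquitin ligases, were bound in 14 of 89 cases (15.7%), close to the 13.8% of their segments. All 14 lay on chromosome II, which holds 76 of the 89, and were led by bath-19 (2.42), bath-27 and bath-29 under a shared peak (2.28), bath-21 (2.13) and btb-8 (1.76). Contact was slight at bath-19 (3.33% of the gene), bath-29 (1.42%) and bath-21 (7.64%), while 29.2% of bath-27 and 25.3% of btb-8 were covered. F-box genes, also adaptors of ubiquitin ligases, were bound in 29 of 322 cases (9.01%), below the 11.7% of their segments although above the 5.92% of all genes. They were led by fbxa-176 (2.35), fbxb-81 (2.35), fbxb-20 and fbxb-21 under a shared peak (2.05) and fbxa-185 (2.02). The pals genes, several of which respond to intracellular pathogens, were bound in 5 of 38 cases against 9.8% in their segments, led by pals-40 (1.98), with 98.96% of its body covered, and pals-1 (1.61).

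Chemoreceptor genes, G protein-coupled receptors of sensory neurons, lie mainly on the arms, 76.01% of them in outer parts. Peaks lay over 47 of 1309 (3.59%, 95% exact interval 2.65% to 4.75%), against 6.89% in their segments. Their median length was 1642 bp, and 4.15% of all genes of 1 to 2 kb were bound, a share inside that interval. By sequence, peaks covered 1.58% of the summed body length of the list and 1.89% of that of all coding genes. Of 995 members in outer parts 46 were bound (4.62%, against 8.36% of all outer genes), and 32 of the 47 were on V. The highest scores belonged to str-64 (2.83, at 2.51% of the gene), sre-43 (2.81), sri-31 (2.8), srh-111 (2.71) and srh-109 (2.16). Nuclear hormone receptor genes were bound in 9 of 269 cases (3.35%, 95% exact interval 1.54% to 6.26%). That interval holds both the 6.17% of their segments and the 5.92% of all genes. The highest scores were at nhr-79 (2.59), nhr-119 (2.21) and nhr-15 (1.74, at 1.4% of the gene). Neuropeptide and insulin genes were bound in 4 of 147, led by nlp-17 (2.01). Ion channel genes were bound in 9 of 181, led by del-10 and twk-31 (2.32 each, at 3.03% and 3.997% of the gene).

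**Figure D4:**
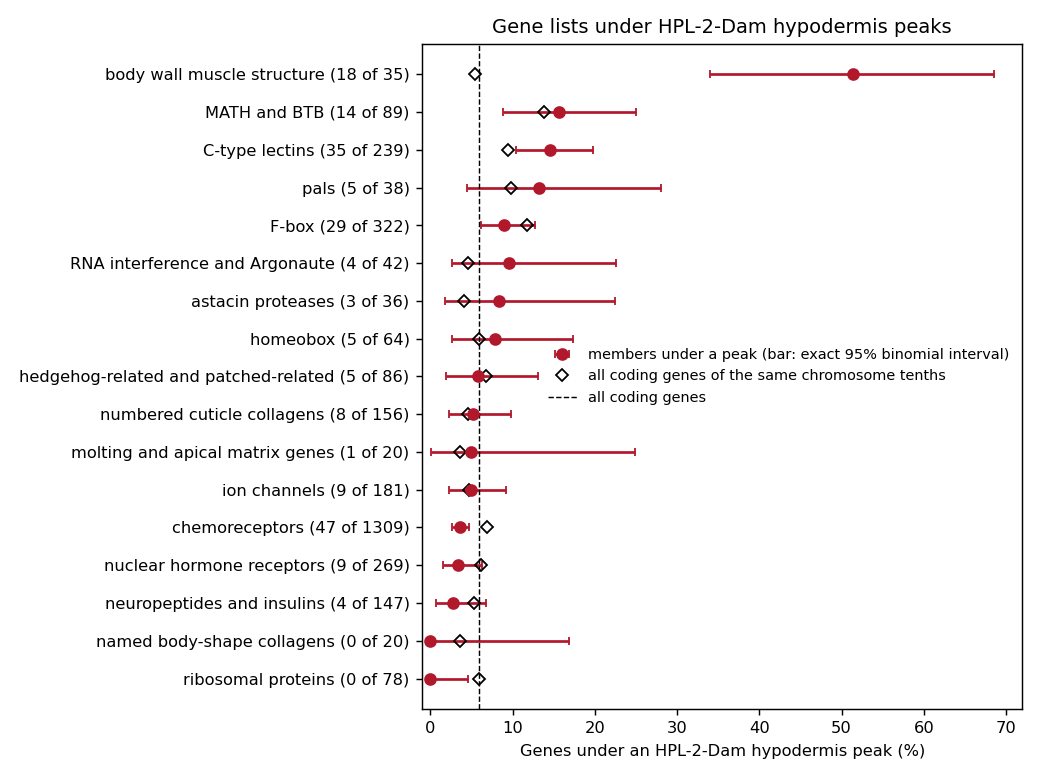
Percent of members under an HPL-2-Dam hypodermis peak for a selection of the 30 gene lists (red, bars are exact 95% binomial intervals). Open diamonds give the mean share in the chromosome segments of the members, and the dashed line the 5.92% of all protein-coding genes. Lists not drawn, among them the epidermal regulators (2 of 13 bound), are given in the text. Muscle genes lie far to the right at 51.4%, lectins lie above their diamond, MATH and BTB genes near theirs, and chemoreceptors below it. Neither the diamonds nor the dashed line are matched for gene length.

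Among housekeeping and chromatin genes, the ribosomal protein list alone had an exact interval below the 5.92% of all genes. Peaks lay over 0 of 78 ribosomal protein genes (up to 4.62%). These genes are short, with a median of 747.5 bp, and 3.31% of all genes under 1 kb were bound, a share inside that interval. Peaks also lay over 0 of 33 proteasome genes (up to 10.6%), 0 of 31 major sperm protein genes, 0 of 19 T-box genes (up to 17.6%) and 0 of 6 vitellogenin genes. Among 72 histone genes the H3.3 gene his-72 (1.89) was bound, and among 28 genes of H3K9 methylation and the synMuv class, lin-13 (2.03). Small RNA pathway genes were bound in 4 of 42 cases, eri-6 with 2 peaks up to 2.36, eri-5 (2.34), wago-10 (1.5) and the Argonaute gene alg-2 (1.4). Homeobox genes were bound in 5 of 64, led by ceh-74 (2.29) and ceh-51 (2). Genes for detoxification enzymes were bound in 2 of 67 (UDP-glucuronosyltransferases), 1 of 74 (cytochromes P450, cyp-31A2) and 1 of 49 (glutathione transferases, gst-25). Lysozyme and saposin genes were bound in 2 of 46 cases (spp-23 and lys-9) and SKR, cullin and elongin genes in 1 of 29 (elc-2, score 2.82). How reads from near-identical gene copies were handled is not given in the sources used here, so counts for repeated families, histones and major sperm proteins among them, are uncertain.

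Outside the muscle list, several genes had 4 or more separate peaks. C14B4.2 on V, of 30.3 kb, had 6 peaks scoring 1.33 to 2.99, the copine-domain gene cpna-1 on II had 5 up to 2.07, and the spectraplakin gene vab-10 on I, of 57.6 kb, had 5 up to 1.67. Cadherin gene cdh-1 and the genes Y43F8B.3, W05F2.4, Y69A2AR.19, hip-1 and Y59C2A.3 had 4 each. In Y69A2AR.19 these covered 72.2% of 5.37 kb.

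Annotated genes that make no protein were also under peaks. Pseudogenes were bound in 129 of 1921 cases, 6.72% (95% exact interval 5.64% to 7.93%). Their placement differs from that of coding genes, 79.7% of pseudogenes and 62.2% of coding genes being in outer parts, and within outer parts 124 of 1531 pseudogenes were bound (8.1%, against 8.36% of coding genes). The highest scoring were R155.4 (3.08), ZK380.3 (2.83) and T20B6.2 (2.59). MicroRNA genes were bound in 13 of 260 cases (5%), transfer RNA genes in 14 of 612 (2.29%), and piRNA genes, which are 21 bp in this annotation, in 26 of 15363 (0.169%). For genes this short the share of the genome covered, 1.74%, is a closer background than that of coding genes. It is a share over the whole genome and takes no account of where these genes lie along the chromosomes.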

How the data were processed

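DamID-seq was made from 10 libraries in 5 groups of 2, per the labels, and the profile here rests on the HPL-2-Dam hypodermis and GFP-Dam hypodermis groups. Per the file names, the authors averaged profiles relative to Dam and called peaks at an FDR of 0.05. The deposited score and FDR were given by the authors to each peak. Bowtie2 2.3.4, SAMtools 1.9, R 3.4.3 and WBcel235/ce11 are named in the submitters' processing notes. The peak caller is not given in the sources used here. Only fragments between GATC sites resolve binding, so peak edges are those of fragments.

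Gene positions came from a RefSeq table of WBcel235 (46890 genes on the 6 nuclear chromosomes, no strand, exons or sequence). A gene counted as bound when its body overlapped a peak by 1 bp or more. Chromosome length was the furthest gene or peak end. In all, 30 gene lists and 6 marker lists were counted. The members and lists were chosen with earlier results of these data known. One listed collagen symbol was absent from the gene table. The share of bound genes in the segments of a list's members, the split of muscle genes by length and the list of centre peaks were added after the data were seen. Named genes are those of the 10 highest scoring and 10 widest peaks, up to 5 highest scoring members per list, genes with most peaks, whole-body cover, the densest window, and markers, and members outside this rule were named after their values were seen. No test was run, since there are no values per replicate. Python 3.11.15, pandas 2.3.3 and scipy 1.17.1 were used, overlap counting was checked on simulated peaks, and exact intervals are Clopper-Pearson at 95%.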

Additional observations from a re-analysis of the deposited data

How the results depend on the processing

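No paired analysis was possible because each deposited list is 1 average with no values per replicate, and for the same reason no library could be left out. At an FDR of 0.01 or below, 935 peaks remained, with a median width of 1109 bp and a median score of 1.83, over 756 protein-coding genes (3.79%). The share of peaks in outer parts was then 90.5%, runs of at least 2 peaks were 169 with 48.1% of the peaks, and the correlation of width with score was 0.145. At that FDR 4 numbered collagen, 23 C-type lectin, 14 F-box, 7 MATH and BTB, 29 chemoreceptor and 14 of 35 muscle genes were bound. With each gene extended by 1 kb at both ends, 8.1% of all genes were bound, among them 22 MATH and BTB and 87 chemoreceptor genes. With the peak midpoint inside the gene, 4.68% were, among them 5 collagen and 9 MATH and BTB genes. Fewer peaks, wider gene windows or a narrower rule give these changes by construction. Outer parts taken from 4 equal parts span less of each chromosome than those taken from 3, and they held 79.96% of peaks. Runs joined within 5 kb held 45.6% of peaks and within 20 kb 69.1%. Muscle genes stood above the background under each of these 3 gene rules, with 14, 19 and 14 of 35 bound. Cover by gene position kept its direction, at 1.3 times with an FDR of 0.01 or below and 1.4 times in genes of 1 kb or longer. The depth behind each peak is unknown, and the list gives no absence of binding outside peaks.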

Other observations

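Binding in chromosome centres, although sparse, was not weak throughout. Among the 20 highest scoring of the 183 centre peaks, a list made after the values were seen, were peaks within jph-1 (3.55), the nicotinic receptor subunit gene unc-63 (2.48), the TGF-beta receptor gene daf-4 (2.46), the paramyosin gene unc-15 (2.22), the galectin gene lec-2 (2.22), the secreted metalloprotease gene gon-1 (2.19) and dim-1 (2.08). The peak in daf-4 was 2178 bp wide (III, 5626778 to 5628955) with an FDR of 6.31e-09, and the peak in lec-2 was 2652 bp wide (II, 10013529 to 10016180).

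Peak edges often coincided to the base with those of the intestine lists. Edges in every list are those of fragments between the same GATC sites, so overlapping peaks can share an edge for that reason alone. How many shared edges these common sites would give was not tested, so the counts are a description only. Of the 490 hypodermis peaks that overlapped an HPL-2-Dam intestine peak, 289 (58.98%) shared an exact start or end with one and 104 shared both. Of the 376 that overlapped an HPL-1-Dam intestine peak, 227 shared an edge and 103 both. By sequence, 22.6% of the hypodermis cover and 29.01% of the HPL-2-Dam intestine cover were common to both lists.

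A single peak had a score far below the rest. It lay within Y20F4.4 (I, 2035591 to 2038651), was 3061 bp wide and scored 0.45 at an FDR of 0.0236, while the next lowest score was 1.16. The 1572 peaks carried only 54 different FDR values.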
